A study of Homo sapiens with 45 samples.

Results

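SKES1 (SK-ES-1 in the labels) is an established Ewing sarcoma cell line, and its 3 poly(A) RNA libraries were set against 18 libraries from the other 6 Ewing sarcoma lines of the study, A673, EW3, EW24, MHHES1, RDES and TC71, with 3 libraries each. All 7 lines were parental, and the labels give them no treatment, transgene or time point. The members described here were the genes whose transcript abundance, as TPM (an abundance scaled for transcript length and depth), was higher in every SKES1 library than in all 18 others, or lower in every SKES1 library than in all 18 others. Of 25606 genes with enough counts to test, 1063 were highest in SKES1 (4.15%) and 615 were lowest (2.4%); without TC71 1246 were lowest. Because the same values chose these genes, those values are a description. The whole series held 45 libraries: the other 24 were 18 from 6 osteosarcoma lines, used for comparison only, and 6 from A673 cells carrying a doxycycline-inducible hairpin, not used here. Each cell line is 1 tumour's cells in culture, so SKES1 is a single unit, and the labels do not say whether its 3 libraries came from separate cultures.

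Ewing sarcoma arises in bone or soft tissue, mostly in children and young adults. Its driver is a fusion of EWSR1 with a gene of the ETS family, most often FLI1 and less often ERG, and the fusion protein binds GGAA repeats and switches many genes on or off. Lines made from different tumours share this driver and differ in secondary changes such as loss of STAG2 or CDKN2A function, gain of the long arm of chromosome 1 and loss of the long arm of chromosome 16.

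The SKES1 libraries held 25482888, 27109941 and 35909486 estimated counts, within the range of 23132161 to 51413254 over the 21 Ewing libraries. Their log2(TPM + 1) values correlated pairwise with a Pearson r across genes between 0.993 and 0.994. Replicate 3 of MHHES1 stood apart in interferon-response genes, with a summed level of 5582 TPM over that list against 804 and 1224 TPM in the other MHHES1 libraries.

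Genes of the fusion and its known markers were expressed in SKES1 at levels near those of the other lines. FLI1, whose 3′ part the usual fusion contributes, was at 28.6, 27.5 and 29.96 TPM in SKES1 and at 31.9 to 44.6 TPM in 5 of the other lines, while EW3 had 2.08 TPM. ERG was listed at 0 in all 3 SKES1 libraries and reached 34.8 TPM in EW3 alone. The defining Ewing markers were all present in SKES1: the surface protein CD99 at 576 to 589 TPM, the metalloreductase STEAP1 at 218 to 265, NR0B1, a nuclear receptor that the fusion activates, at 125 to 130, the transcription factor PAX7 at 84.2 to 101, NKX2-2 at 51.9 to 59.1 and BCL11B at 22.2 to 25.6. Each lay within the range of the other 6 line means. KCNN1, the calcium-activated potassium channel gene named in the study's title, was at 27.5, 28.1 and 25.4 TPM, between TC71 at 7.57 and MHHES1 at 48.9 TPM. EWSR1 was at 296 ± 29 TPM (SD, n = 3 libraries), against line means of 210 to 319 TPM elsewhere. FLI1 in SKES1 thus lay just below 5 of the other lines and above EW3, and EWSR1 and KCNN1 lay inside the range of the line means.

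Summed levels of markers of other cell types were compared by list. Blood cell markers summed to 4.88 to 6.23 TPM over the 3 libraries, against 3.92 to 6.37 TPM over the other lines. Endothelial markers summed to 12.2 to 13.5 TPM against 3.81 to 24 TPM, of which EMCN held most and VWF was listed at 0. Epithelial markers summed to 44.6 to 55.03 TPM against 11.6 to 624, and skeletal muscle markers to 89.1 to 123 TPM against 7.49 to 110, nearly all of the latter from TNNT1; the SKES1 mean of the muscle list, 103 TPM, was near the top of the lines. None of the members of these 4 lists was highest or lowest in SKES1.

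The main test set the SKES1 line sum against the 6 other line sums with edgeR's quasi-likelihood test, so that the spread between lines was the error and SKES1 was assumed to vary like the rest. It called 0 genes higher (0% of those tested) and 0 lower at a false discovery rate (FDR) under 0.05; 927 genes had an unadjusted p under 0.05, and the lowest FDR was 0.0797, shared by 7 genes. DESeq2 on the same sums called 59 genes higher and 210 lower, and limma with the line as a random effect called 152 and 24. An exact permutation over 7 lines cannot give a p below 0.143, so the genes named below are a description by size, filled in order of the edgeR log2 fold change because none was called. When the 21 libraries were the samples, edgeR called 5789 genes higher (22.6%) and 4739 lower (18.5%); that error is the spread between libraries of a line only. Median log2 fold change over all genes tested was -0.16 on line sums, and values below are to be read against it.

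Being at the extreme was common to every line. RDES had 2188 genes highest and 455 lowest, EW3 2601 and 774, and TC71 709 and 1633, so that SKES1, with 1063 and 615, was in the middle for genes highest and among the low ones for genes lowest. Of the 1063 genes, 865 coded for protein (81.4%, against 66.1% of all genes tested), as did 542 of the 615 (88.1%). The gap was usually small: the lowest SKES1 library exceeded the highest other library by a median of 1.20-fold. It was at least 2-fold for 164 genes and at least 10-fold for 32, and among genes lowest the matching counts were 134 and 30. Across genes, SKES1 correlated best with MHHES1 (Spearman correlation 0.919) and least with EW3 (0.897), while the other 15 pairs of lines that leave SKES1 out ran from 0.879 to 0.926.

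**Figure D1:**
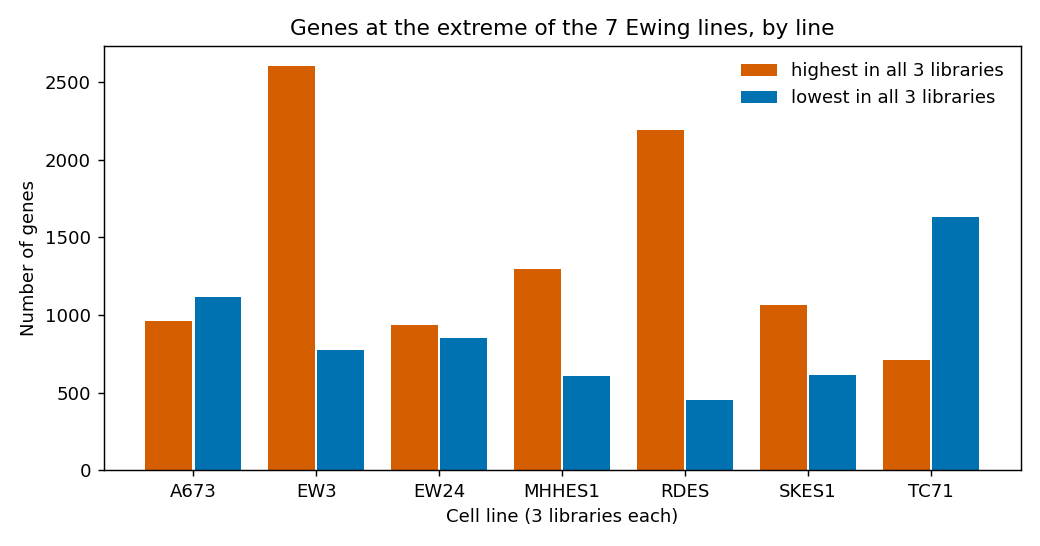
Number of genes (y axis) that were highest (orange) or lowest (blue) in all 3 libraries of a line among the 7 Ewing lines (x axis). SKES1 had 1063 and 615; EW3 had the most genes highest, 2601, and TC71 the most genes lowest, 1633.

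A cluster of X-linked cancer-testis genes was expressed in SKES1 and nearly silent in the other Ewing lines. The MAGEA genes code for proteins that partner ubiquitin ligases and are normally confined to the male germ line; CSAG genes lie between them. MAGEA3 was at 57.4, 71.1 and 57.5 TPM in SKES1, and the highest of the 18 other libraries had 0.246 TPM. MAGEA12 was at 24.5, 28.8 and 26.3 TPM against at most 0.0994. MAGEA2B was at 38.8, 40.5 and 39.7 TPM against at most 0.23. MAGEA6 was at 20.6, 26.96 and 22.2 TPM against at most 1.15, the last in TC71. MAGEA2 was at 9.63, 13.5 and 9.73 TPM with 0 counts over the 18 other libraries after rounding, and CSAG2 at 7.35, 7.89 and 4.48 TPM with 0. CSAG3 was at 10.1 to 14.5 TPM and CSAG1 at 4.32 to 6.48 TPM, both under 0.98 TPM in every other library. All 8 genes were chosen because SKES1 and the other lines did not overlap. They fill 8 of the 15 places of the named genes that were highest. In bulk RNA, a smaller part of the cells with a transcript and less of it per cell cannot be told apart, here or in the results that follow.

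MAGEA3 and MAGEA6, MAGEA2 and MAGEA2B, and CSAG2 and CSAG3 are near-identical copies, so the split of reads within each pair is uncertain. The promoters show how close the copies are: over 250 bases before to 50 after the start, the RefSeq sequences (GRCh38.p14) of MAGEA3 and MAGEA6 were the same at all 300 bases, and those of MAGEA2 and MAGEA2B shared a run of 258 bases at an offset of 42, the whole overlap of their windows. The longest run shared by the promoters of MAGEA2, MAGEA2B, MAGEA3, MAGEA6 and MAGEA12 was 27 bases, and those 5 were the only ones with it among 18026 promoters of tested genes searched on both strands. It is shown in capitals, on the gene's strand.
MAGEA3, chrX:152698544-152698593, plus strand: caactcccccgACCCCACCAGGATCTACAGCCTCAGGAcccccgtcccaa
MAGEA2, chrX:152754018-152754096, minus strand: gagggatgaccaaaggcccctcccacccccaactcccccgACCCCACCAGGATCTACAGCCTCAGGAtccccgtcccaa
MAGEA12, chrX:152733552-152733630, plus strand: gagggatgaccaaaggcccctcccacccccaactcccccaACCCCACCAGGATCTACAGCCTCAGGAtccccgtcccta
The stretches shown end 201 bases before the start in MAGEA3, 134 in MAGEA2 and 127 in MAGEA12. The letters describe likeness only, and neither methylation nor binding was measured there.

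Not every cancer-testis gene followed. Of 22 genes on the list 15 were tested. Among these, 5 were highest in SKES1 (33.3%, against 4.15% of all genes): MAGEA3, MAGEA6, MAGEA12, MAGEC1 at 0.222 to 0.436 TPM and MAGEC2 at 1.496 to 2.26 TPM. A gene with enough counts in SKES1 alone could pass the count filter. The shares given here thus describe the genes that passed and are no test of the list. The list's median log2 fold change was 0.55, with 8 genes above 0 and 7 below; it was 1.19 without EW3, 0.96 without MHHES1 and 0.36 without EW24. In the 21-library fit 8 were called higher and 3 lower, or 53.3% and 20% against 22.6% and 18.5% of all genes. PRAME, a cancer-testis gene on chromosome 22, was at 194 to 200 TPM in SKES1, between 4.92 TPM in A673 and 334 TPM in MHHES1. CTCFL, the germ-line relative of CTCF, was at 0.639 to 0.837 TPM in SKES1 and at 83.5 TPM in TC71. MAGEA3 reached 340 TPM and MAGEA12 159 TPM in the highest osteosarcoma line, so the cluster was not silent outside SKES1.

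The other 7 named genes that were highest had unrelated roles. CCR1, a receptor for inflammatory chemokines, was at 20.7, 19.4 and 23.6 TPM in SKES1 and at most 0.0565 TPM in any other Ewing library; it stayed under 0.59 TPM in the means of the 6 osteosarcoma lines (edgeR log2 fold change 10.81, SE 1.11, FDR 0.0797). CRABP2, which carries retinoic acid to its nuclear receptors, was at 284, 284 and 494 TPM against 0.858 to 9.70 TPM, a 97.7-fold difference of means (FDR 0.0797). Both genes were chosen because SKES1 did not overlap the rest, and their FDR, the lowest of this comparison, did not reach the threshold.

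MYOM2, a protein of the sarcomere's M band, was at 323, 337 and 308 TPM in SKES1, 31.6 TPM in EW3 and 16.8 TPM or less in the means of the other 5 lines. TMEM119, a membrane protein of bone cells and microglia, was at 79.1, 73.2 and 72.8 TPM against at most 2.06. FNDC1, a protein with fibronectin-type domains, was at 31.1 to 35.2 TPM against at most 1.96. In each case the lowest SKES1 library was several times the highest other one. HAND1, a basic helix-loop-helix factor of heart and extraembryonic development, was at 7.12 to 8.73 TPM against at most 1.07. COL14A1, a collagen that decorates fibrils, was at 7.93, 10.3 and 11.3 TPM against at most 0.0767. MYOM2 stayed under 0.88 TPM in all 6 osteosarcoma line means, but TMEM119 reached 297 TPM and COL14A1 74.0 TPM in one of them.

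**Figure D2:**
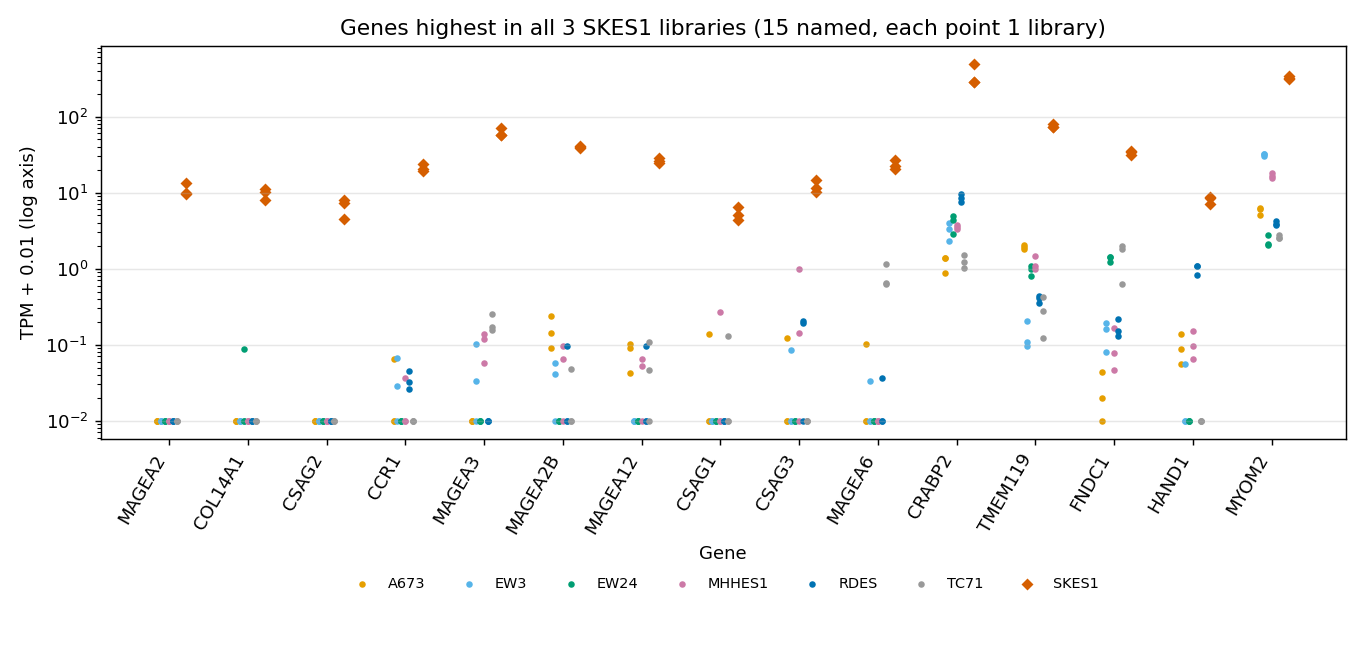
TPM plus 0.01 on a log axis for the 15 named genes highest in SKES1; circles are the 18 libraries of the other lines and orange diamonds the 3 SKES1 libraries. CCR1 sits at 19.4 to 23.6 TPM in SKES1 and at most at 0.0565 elsewhere, and MYOM2 has the highest levels outside SKES1, up to 32.6 TPM.

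At the other end, several genes that each other line expressed were close to 0 in SKES1. STK26, a kinase of the germinal centre family also known as MST4, was at 0.199, 0.0719 and 0.0563 TPM in SKES1 and at 18.2 to 83.3 TPM in the other 18 libraries, whose lowest value was 1 TC71 library. The 3 SKES1 libraries held 14 STK26 counts in all, against 51375 in the others (log2 fold change -9.11, SE 0.88, FDR 0.0797). SRSF8, a splicing factor gene that arose as a retrocopy of SRSF2, was at 0.0744, 0.0891 and 0.0398 TPM against 5.27 to 18.3 TPM (FDR 0.18); reads could be split with its parent gene. These were the 2 named genes at 5 TPM or more in every other Ewing library.

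Most of the rest were low in SKES1 and varied widely among the other lines. PDLIM1, an actin-associated LIM protein, had a single count in the 3 SKES1 libraries and ran from 0.882 TPM in MHHES1 to 43.5 in TC71. PLAGL1, an imprinted zinc-finger gene, was at 0 to 0.0252 TPM, and MHHES1 at 0.0409 TPM was nearly as low. ZC3HAV1, an antiviral protein that binds foreign RNA, was at 0.0945, 0.0469 and 0.018 TPM against line means of 1.16 in EW24 to 31.7 in MHHES1. GSDMD, which forms the membrane pore of pyroptosis, was at 0.0346 to 0.234 TPM against 1.17 to 44.2. FAM111A, a protease that restricts viruses, was at 0.0905 to 0.134 TPM, with TC71 at 0.404 and EW24 at 0.447 close above and the other 4 at 5.61 TPM or more.

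VAV1, a guanine nucleotide exchange factor typical of blood cells, was at 0.0836 to 0.299 TPM and ran from 0.577 to 59.7 TPM elsewhere. COL21A1, a collagen, was at 0.274 to 0.378 TPM against 0.834 to 86.4, and ADD2, a subunit of adducin in the membrane skeleton, at 0.0788 to 0.118 TPM against 0.204 to 31.7. HSD17B2, which inactivates oestradiol, ADAM23, a catalytically inactive ADAM protein, BMERB1 and VWA5A completed the named genes, each under 0.09 TPM in every SKES1 library. Of the genes lowest in SKES1, 284 (46.2%) had an osteosarcoma line mean at or below the SKES1 mean, and of those highest, 395 (37.2%) had one at or above it; 552 and 251 were highest and lowest when all 13 lines were compared.

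GPC4, a heparan sulphate proteoglycan of the cell surface, was at 0.0304, 0.0271 and 0.0335 TPM against line means of 1.29 to 14.7. It lies near STK26 on the X chromosome. In the RefSeq annotation of GRCh38.p14, STK26 runs from chrX:132023302 to 132075943 and GPC4 from chrX:133300103 to 133415489. HS6ST2, a heparan sulphate sulfotransferase between them, was also lowest, at 0.0835 ± 0.014 TPM (SD, n = 3 libraries) against line means of 1.22 to 15.7; it was picked after its value was seen. RAP2C and MBNL3 lie between these genes and were not low: RAP2C was at 29.8 ± 5.2 TPM against 10.1 to 24.6, and MBNL3 at 9.24 ± 2.4 TPM against 6.004 to 47.3. The low genes thus lay on both sides of a pair that was not low.

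**Figure D3:**
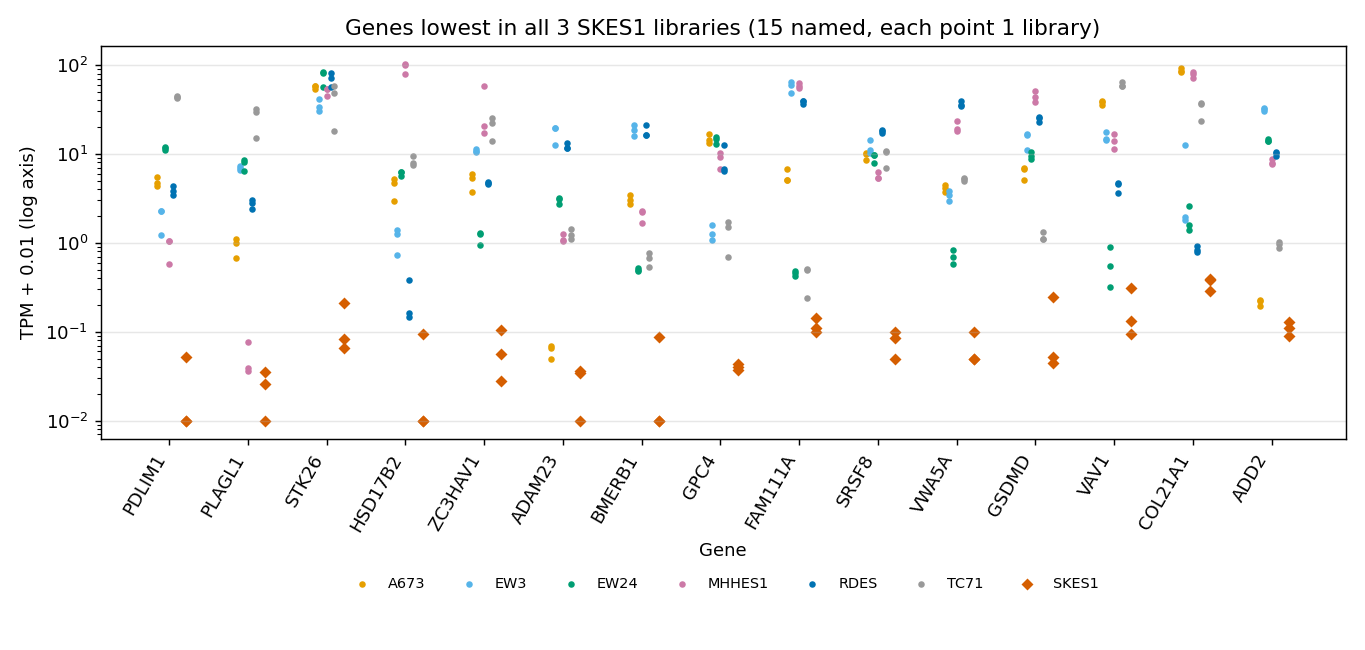
TPM plus 0.01 on a log axis for the 15 named genes lowest in SKES1; circles are the 18 libraries of the other lines and orange diamonds the 3 SKES1 libraries. For STK26 the other libraries lie between 18.2 and 83.3 TPM and SKES1 at 0.199 or below, whereas for PLAGL1 the MHHES1 libraries come close to SKES1.

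Genes of antigen presentation had low levels in SKES1. MHC class I molecules show peptides from inside the cell to T cells; B2M is their light chain, TAP1 and TAP2 pump the peptides in, and PSMB8 and PSMB9 are immunoproteasome subunits. All 17 genes on the list had a log2 fold change below 0, against 59.6% of all genes tested, with a median of -2.27 against -0.16; 3 were lowest (17.6%, against 2.4% of all genes), 2 had an unadjusted p under 0.05, and in the 21-library fit 13 were called lower (76.5%, against 18.5% of all genes) and 0 higher. B2M was at 563, 600 and 639 TPM against line means of 782 in EW24 to 2264 in A673. TAP2 was at 0.279, 0.333 and 0.457 TPM against 3.47 in TC71 to 26.1 in MHHES1, whose libraries had 18.6, 22.2 and 37.4 TPM (log2 fold change -5.26, SE 1.34, edgeR FDR 0.90).

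B2M and TAP2 were among the genes lowest, so by that rule no SKES1 library overlapped the rest. For some other genes of the list another line was as low, lower or close above. TAP1 was at 0.0289 to 0.426 TPM in SKES1 and 0.392 TPM in A673, and HLA-B was at 13.1 to 16.05 TPM in SKES1 and lower still, 1.58 TPM, in A673. PSMB8 was listed at 0 in SKES1, with TC71 close above at 0.0712 TPM. Summed over the list, SKES1 had 1684 to 1747 TPM, below the lowest other line, TC71, at 2151 TPM. The MHHES1 libraries summed to 2698, 2838 and 4003 TPM, the last in the replicate that stood apart. HLA alleles differ between people, and how far alleles unlike the reference sequence lower the HLA counts of a line was not tested.

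Interferon-response genes had low levels too, with a contrast that was smaller without MHHES1. Summed over their list, SKES1 had 167 to 178 TPM, with A673 close above at 198 TPM and MHHES1 highest at 2537 TPM. Interferons signal through JAK kinases to induce antiviral genes such as ISG15, a ubiquitin-like modifier, and the IFIT proteins, which bind viral RNA. Of 20 genes 19 had a log2 fold change below 0 (95.0%, against 59.6% of all genes tested), the median was -3.19, 3 were lowest (15%, against 2.4%), none had an unadjusted p under 0.05, and in the 21-library fit 10 were called lower (50%, against 18.5% of all genes) and 1 higher. Without MHHES1, whose replicate 3 stood apart, the median was -1.75, while leaving out any of the other 5 lines gave -3.43 to -3.25; for the MHC list the range over the 6 was -2.49 to -2.13.

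ISG15 was at 5.25, 9.67 and 7.12 TPM in SKES1, against 26.5 TPM in EW24, 35.6 in EW3, 68.1 in A673, 103 in RDES and 137 in TC71; the MHHES1 libraries had 142, 231 and 918 TPM. IFI6, an interferon-induced membrane protein, was at 14.8, 13.8 and 13.2 TPM, just under A673 at 16.4, with the other lines at 37.6 TPM or more. IFIT2 was at 0.0226, 0.222 and 0.199 TPM against 0.654 in A673 to 21.8 in MHHES1, whose libraries had 9.61, 14.7 and 41.1 TPM. MX2, a dynamin-like antiviral protein, went the other way, at 22.1 to 24.8 TPM, between MHHES1 at 40.1 TPM and RDES at 0.644 TPM, with the remaining lines lower still. ISG15 and IFIT2 were thus clear of every other line, and IFI6 was clear by a small margin.

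The motif by which interferon-activated factors recognise these promoters has the core GAAANNGAA, and it was counted on both strands, overlaps allowed, over 250 bases before to 50 after each start. It was chosen after the levels were seen. It occurred in 12 of 14 interferon-response promoters, 6 of 13 MHC promoters and 7.21% of all 18026; genes lowest in SKES1 had it in 6.69% and genes highest in 4.28%. The stretches below are from RefSeq on GRCh38.p14, on the gene's strand, with the motif in capitals; they show the element in 2 interferon genes and 2 presentation genes that were lowest.
ISG15, chr1:1013369-1013419, plus strand: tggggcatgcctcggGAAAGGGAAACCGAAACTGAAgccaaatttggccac
IFI6, chr1:27672262-27672363, minus strand: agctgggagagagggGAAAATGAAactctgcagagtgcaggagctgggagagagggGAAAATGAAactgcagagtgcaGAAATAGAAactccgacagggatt
TAP2, chr6:32838774-32838812, minus strand: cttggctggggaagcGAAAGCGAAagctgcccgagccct
B2M, chr15:44711358-44711402, plus strand: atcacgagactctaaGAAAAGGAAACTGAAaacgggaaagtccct
ISG15 and IFI6 held 3 copies each, B2M 2 and TAP2 1. A match is a description of letters, and no binding was measured. GGAAGGAA, the shortest tandem of the repeat that EWSR1-FLI1 binds, was in 1.59% of promoters of genes highest, 3.56% of those lowest and 3.51% of all.

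**Figure D4:**
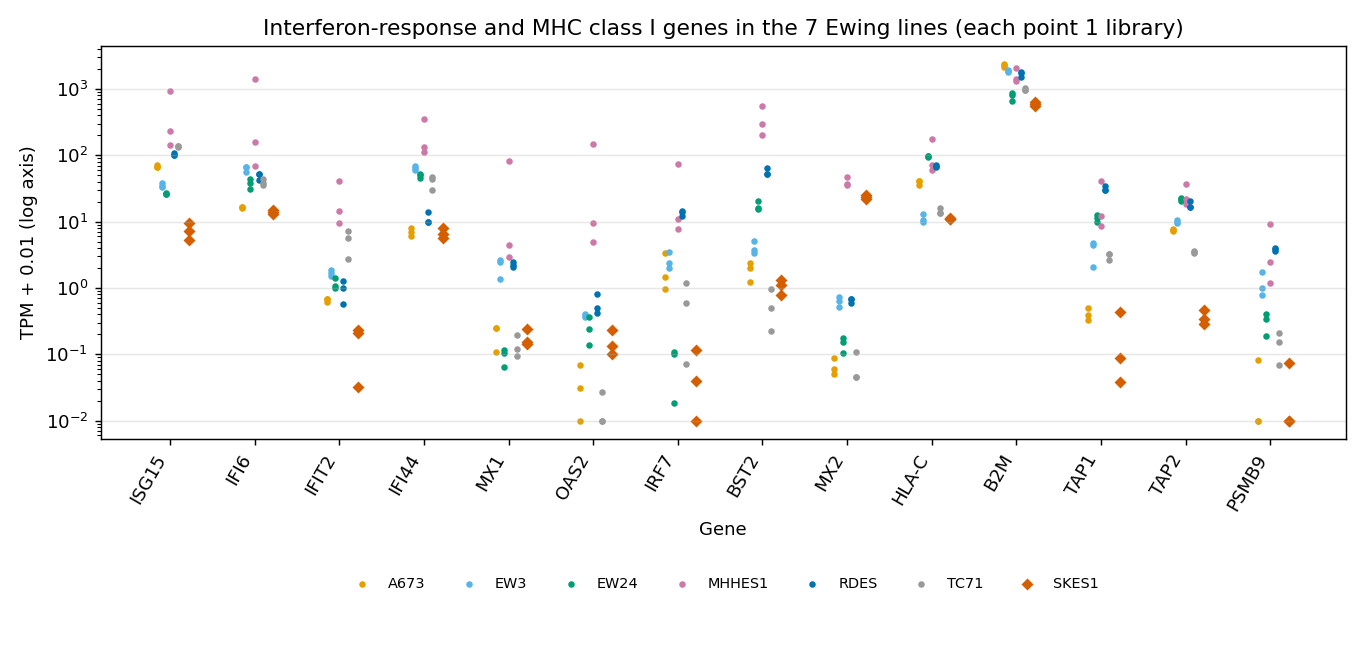
TPM plus 0.01 on a log axis for 9 interferon-response genes and 5 MHC class I genes; circles are the 18 libraries of the other lines and orange diamonds the 3 SKES1 libraries. SKES1 lies under every other library for ISG15, IFI6, IFIT2, B2M and TAP2, and MX2 is at 22.1 to 24.8 TPM.

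Many genes lowest in SKES1 lay near the ends of chromosomes 1 and 16. In 10 Mb windows with at least 20 genes of 1 TPM or more, 4 windows from 210 Mb to the end of chromosome 1 held 76 genes lowest of 181 (41.99%), and 3 windows from 60 to 90 Mb of chromosome 16 held 106 of 220 (48.2%); none of the 7 windows held a gene of that level that was highest. Among genes under 1 TPM on average over the 7 lines, FMN2, OR2L13, OR2M4 and PGBD5 on the chromosome 1 stretch were highest, with SKES1 means of 1.63, 0.665, 0.142 and 0.833 TPM; they were named after their values were seen. Over all genes of that level 3.64% were lowest. These 182 genes were 33.1% of the 550 lowest genes of at least 1 TPM, in stretches with 2.65% of the genes. The windows were picked after their values were seen.

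Most genes of these stretches had a log2 fold change below 0 against the mean of the other lines, while fewer than 1 in 2 were below every one of them. On chromosome 1 the median log2 fold change was -1.43 and 171 of 181 genes were below 0, whereas the window from 200 Mb had a median of -0.16 and 3 of 76 genes lowest. On chromosome 16 the median was -0.98, with 214 of 225 genes below 0 from 60 Mb to the end; of the 5 genes past the last window, LOC101927999, named after its value was seen, was highest. The window from 50 Mb had a median of -0.19 with 3 of 61 lowest. With each other line in the place of SKES1, the medians were -0.11 to 0.58 on the first stretch and -0.12 to 0.25 on the second. DNA copy number was not measured, and its part in this was not tested.

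Several list members that were lowest lie in these stretches. PARP1, the DNA repair enzyme inhibited by olaparib, was at 212, 203 and 230 TPM against line means of 276 to 397, and NEK2, a mitotic kinase, at 17.2 to 19.3 TPM against 45.1 to 90.5. ATF3, a stress-induced factor, was at 2.46 to 3.47 TPM against 8.58 to 32.98. On chromosome 16, CDH11, a mesenchymal cadherin, was at 16.6 to 20.4 TPM against 51.1 to 113, and SLC7A5, an importer of large amino acids, at 39.9 to 48.7 TPM against 61.6 to 512. All 5 were chosen because SKES1 and the other lines did not overlap. CTCF, which organises chromatin loops with cohesin, also lies on chromosome 16 and was at 15.6 to 22.7 TPM against line means of 23.6 to 35.002.

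Of the 4 windows with 20% or more of their genes highest, 2 lay at the end of chromosome 9, 1 at the end of X and 1 inside chromosome 7. In the last, from 70 to 80 Mb, 21 of 67 genes were highest (31.3%) and 0 lowest, with a median log2 fold change of 0.50. From 120 Mb on chromosome 9, 95 of 248 genes were highest (38.3%) and 1 was lowest, with a median log2 fold change of 0.56. They included ABL1, NUP214, SET, TRAF2 and CDK9. From 150 Mb on the X chromosome 35 of 76 genes were highest (46.1%), with a median of 0.70. Only 6 of those 35 were MAGE or CSAG genes of at least 1 TPM on average over the 7 lines; the other 29 included broadly expressed genes such as DKC1, EMD, IDH3G, IRAK1 and NAA10. The background was 5.40% of genes at that level. These examples were chosen after their values were seen. By whole chromosome, 13.96% of tested genes were highest on chromosome 9, 9.46% on chromosome 7 and 7.98% on chromosome 17, against 4.15% of all genes tested; on chromosome 17 another line reached 8.87%, and on chromosomes 9 and 7 at most 9.40% and 7.18%. Such clusters were not peculiar to SKES1: 20% or more of genes were lowest in 7 of its 256 windows, against 2 in RDES and 15 in TC71, and highest in 4, against 35 in RDES.

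**Figure D5:**
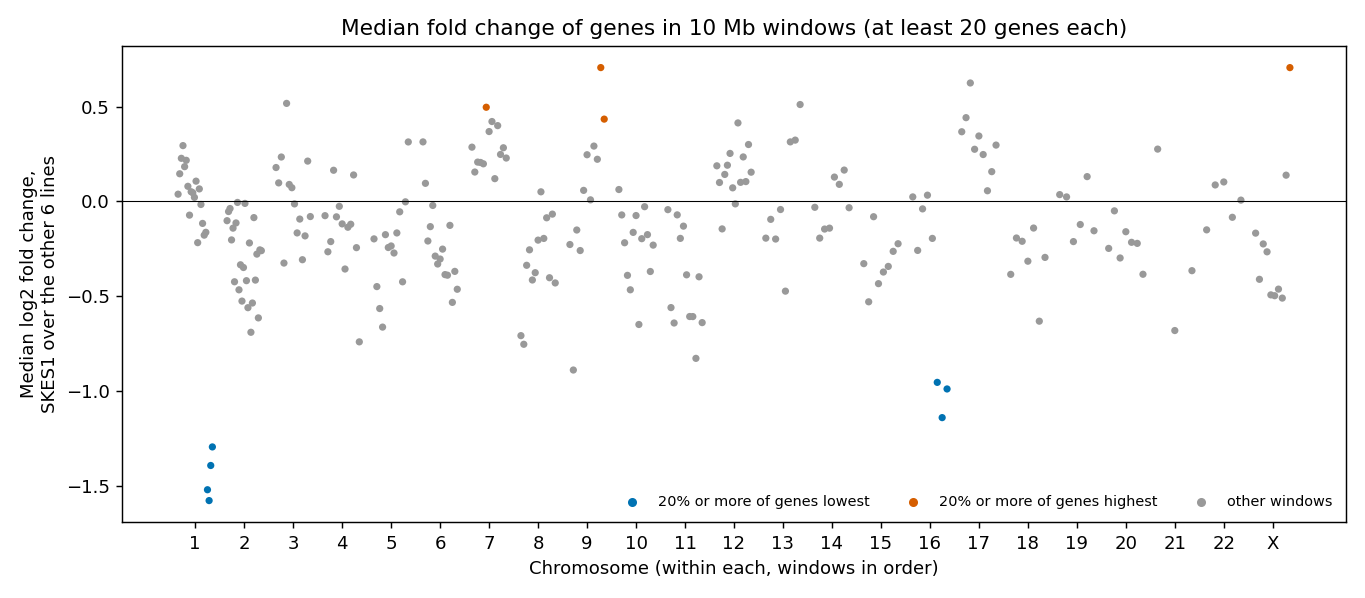
Median edgeR log2 fold change of SKES1 over the other 6 lines (y axis) in each of 256 windows, in order within each chromosome (x axis); blue windows have 20% or more of their genes lowest in SKES1 and orange windows 20% or more highest. The 4 blue windows of chromosome 1 lie between -1.58 and -1.29 and the 3 of chromosome 16 between -1.14 and -0.95.

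Of 14 cohesin genes 1, STAG2, was lowest (7.14%, against 2.4% of all genes), with MHHES1 next above. STAG2, a core subunit of cohesin that is recurrently inactivated in Ewing sarcoma, was at 6.32, 4.79 and 7.23 TPM in SKES1, against 10.8 TPM in MHHES1, 28.5 in EW3 and 42.7 to 104 in the remaining 4 (log2 fold change -3.16, SE 1.41, unadjusted p 0.058, edgeR FDR 1). SKES1 and MHHES1 were the lowest 2, and SKES1 lay under all 18 libraries, whose minimum was 9.998 TPM. Its paralogue STAG1 was at 32.5 to 41.4 TPM, within or just above the range of 18.1 to 38.7 by line. None of the other 13 cohesin genes was highest or lowest.

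CDKN1A, an inhibitor of cyclin-dependent kinases, was lowest at 1.01, 1.30 and 1.38 TPM, against 1.74 TPM in RDES and 6.44 to 12.4 in the others. CDKN2A, which codes for p16 and p14ARF, was at 95.5, 94.1 and 87.7 TPM, while A673 had 0 and TC71 0.0876 TPM. CCND2, a D-type cyclin, was highest at 29.7, 37.8 and 30.6 TPM against at most 10.005 in any other library, and CDKN2B was highest at only 0.265 to 0.356 TPM. Of 18 genes of G1 control 2 were highest and 1 lowest (11.1% and 5.56%, against 4.15% and 2.4% of all genes).

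Among genes that EWSR1-FLI1 activates, 3 of 30 were highest and 2 lowest (10% and 6.67%, against 4.15% and 2.4% of all genes), with a median log2 fold change of -0.35. EZH2, the polycomb methyltransferase, was at 332, 319 and 354 TPM against line means of 96.4 to 213. SOX2, a stem-cell factor, was at 91.3, 87.5 and 97.3 TPM against 28.6 to 56.3. CCK, which codes for cholecystokinin, was at 527 to 662 TPM, with EW24 at 436 and TC71 at 1.03. Both transcription regulators were clear of the other lines by more than 1.5-fold over the next line mean. ITM2A was lowest at 120 to 152 TPM against 375 to 930, as was JAK1, a cytokine-receptor kinase, at 124 to 145 against 166 to 476. Of 15 genes repressed by the fusion 13 were below 0 (86.7%, against 59.6% of all genes tested). The list's median was -2.50, or -1.17 without A673 and -1.31 without EW3. CDKN1A was among the 2 that were lowest (13.3%, against 2.4% of all genes). Low levels were not particular to SKES1: summed over the list it had 41.8 to 67.7 TPM, and TC71 had 41.3 TPM.

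Mesenchymal genes went both ways. Of 28, 5 were highest and 3 lowest (17.9% and 10.7%, against 4.15% and 2.4% of all genes), with a median of -0.90; in the 21-library fit 11 were called higher and 15 lower (39.3% and 53.6%, against 22.6% and 18.5%). TWIST1, a driver of mesenchymal state, was at 272, 236 and 260 TPM against 8.32 to 61.1 by line, a 6.85-fold difference of means. The proteoglycans DCN and LUM were highest at 6.55 to 7.83 and 8.90 to 10.7 TPM, PDGFRA at 2.20 to 2.50 TPM, and the protease MMP2 at 61.6 to 68.6 TPM with A673 at 58.4 close below. SPARC, a matrix glycoprotein, was lowest at 24.5, 25.9 and 29.6 TPM against 61.3 to 618, and TAGLN, an actin-binding protein, at 0.344 to 0.596 TPM against 0.713 to 39.7. The summed level of the list was 1070 to 1178 TPM in SKES1, near EW3 at 1154 and far below A673 at 5395.

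Of 11 bone and cartilage genes tested 2 were highest (18.2%, against 4.15% of all genes). ALPL, the alkaline phosphatase of mineralising cells, was at 198, 186 and 177 TPM against 3.44 to 110, and RUNX2, the osteoblast regulator, at 5.86 to 7.22 TPM against 0.0223 to 4.14. None of the list was lowest, and its median log2 fold change was -2.38; it was -0.69 without RDES, -1.30 without MHHES1, -1.43 without A673 and -1.56 without TC71. NGFR, the low-affinity nerve growth factor receptor, was highest among 27 neural markers tested, at 330, 345 and 348 TPM against 17.4 to 168. Summed over the bone list, SKES1 had 187 to 213 TPM against at most 158 in another line, MHHES1, and nearly all of the SKES1 sum was ALPL; 7 of the 11 genes had a log2 fold change below 0. Summed over the neural list SKES1 had 883 to 908 TPM against at most 793, in EW3. NGFR alone held 330 to 348 TPM of the SKES1 sum, and the sums without it were not compared. In the 21-library fit 16 neural markers were called higher and 2 lower (59.3% and 7.41%, against 22.6% and 18.5% of all genes). On line sums the median of the neural list was -0.21, with 12 of 27 genes above 0 and 15 below; it turned to 0.13 without EW24 and 0.05 without RDES.

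WNT signalling ends in LEF1 and TCF7, which bind DNA with beta-catenin, and AXIN2 is its feedback inhibitor and common readout. All 3 were highest in SKES1: TCF7 at 14.04, 11.5 and 12.2 TPM against 0.875 to 2.01 (log2 fold change 3.11, SE 0.50, edgeR FDR 0.30), LEF1 at 19.2 to 21.3 TPM against 0.456 to 11.8, and AXIN2 at 9.48 to 12.8 TPM against 2.69 to 7.07. FZD8, a WNT receptor, was highest too, at 102, 93.0 and 96.7 TPM against 11.1 to 61.1, and the ligand WNT16 at 0.107 to 0.167 TPM. FZD6, another receptor, was lowest at 2.01 to 4.19 TPM against 5.42 to 20.8, and so was NKD1, an inhibitor, at 0.0637 to 0.0859 TPM, just under TC71 at 0.096. Of 43 genes tested 5 were highest and 2 lowest (11.6% and 4.65%, against 4.15% and 2.4% of all genes). The median was -0.02, from -0.14 without EW3 to 0.19 without EW24, and also above 0, at 0.04, without TC71; in the 21-library fit 21 were called higher and 6 lower, or 48.8% and 13.95% against 22.6% and 18.5% of all genes.

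Of 38 HOX genes tested, which set position along the body axis, 2 were highest and 2 lowest (5.26% each, against 4.15% and 2.4% of all genes). HOXA7 was highest at 8.46, 7.55 and 8.35 TPM against 0.219 to 2.40, and HOXA11 at 1.26 to 1.89 against at most 0.914 in any library. HOXD8 was lowest at 6.82 to 8.48 TPM against 15.3 to 35.9, and HOXD9 at 11.3 to 14.2 against 17.7 to 56.4. The median of the list was 0.06, from -0.04 without RDES to 0.23 without EW3, with 20 called higher and 7 lower in the 21-library fit (52.6% and 18.4%, against 22.6% and 18.5% of all genes).

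Of the 43 S phase genes 13 were called higher and 7 lower in the 21-library fit, or 30.2% and 16.3% against 22.6% and 18.5% of all genes; of the 54 G2/M genes 8 (14.8%) and 18 (33.3%) were. Summed over the S phase list, SKES1 had 5682 to 6310 TPM, with a mean of 5895, against at most 5809 in another line, A673. MCM7, a subunit of the replicative helicase, was at 770, 791 and 873 TPM against 346 to 491, NASP, a histone chaperone, at 608 to 660 against 239 to 467, and RFC2 at 176 to 198 against 101 to 160. RFC2 lies in the chromosome 7 window with 31.3% of its genes highest. MCM7 lies in a chromosome 7 window with 18.75% highest, and NASP in a chromosome 1 window with 5.66%. Of 43 S phase genes 3 were highest (6.98%, against 4.15% of all genes) and of 54 G2/M genes 2 (3.70%), AURKB at 281 to 288 TPM and CKS2 at 609 to 721 TPM; the median log2 fold changes were 0.08, from 0.03 without EW3 to 0.13 without A673, and -0.09, from -0.20 without EW3 to -0.04 without MHHES1. CHEK2, a checkpoint kinase, was highest at 49.96 to 55.5 TPM but only 1.11-fold over TC71.

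Of 22 surface antigens used as targets, 18 had a log2 fold change below 0 (81.8%, against 59.6% of all genes tested), 3 were lowest (13.6%, against 2.4% of all genes) and none was highest. ADGRG2, an adhesion receptor of Ewing cells, was lowest at 1.45, 1.34 and 2.01 TPM, with EW24 at 2.98 next and EW3 at 204. TNFRSF10A, a TRAIL death receptor, was at 0, 0.228 and 0.11 TPM against 0.313 to 16.3. INSR, the insulin receptor, was highest at 9.36 to 11.9 TPM with EW24 at 8.10, and ATP2B3, a plasma-membrane calcium pump on the X chromosome, at 9.39 to 9.92 with EW24 at 8.09. Of 39 channel and pump genes 1 was highest (2.56%) and of 35 receptor tyrosine kinases 2, INSR and PDGFRA (5.71%), against 4.15% of all genes. Neither list had a gene lowest. Of 23 genes of DNA repair and drug response 1 was highest and 1 lowest (4.35% each, against 4.15% and 2.4% of all genes). Among 21 genes of the amino acid stress response 2 were lowest (9.52%, against 2.4% of all genes). No member of the lists of 15 ETS and fusion partner genes, 23 integrins tested and 6 neural crest genes tested was highest or lowest.

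Transcript use differed for a few genes. Among 7725 genes at 5 TPM or more in all 21 libraries, 3 transcripts had a share of their gene at least 30 percentage points higher in every SKES1 library than in all others; the other lines had 0 to 4 such transcripts. In ADAM15, a membrane metalloprotease, NM_207191.3 took 77.2, 79.1 and 75.2% of the gene's TPM in SKES1 and at most 2.62% in any other library, with gene levels of 65.9 to 68.7 TPM. NM_003815.5, which held 40.5 to 83.0% elsewhere, was at 1.30 to 9.61% here. In TRPT1, a tRNA phosphotransferase, NM_001160392.2 took 50.01 to 55.8% against at most 7.78%.

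MCCC2, a subunit of the mitochondrial carboxylase that breaks down leucine, was itself lowest, at 5.88, 5.06 and 7.66 TPM against line means of 32.1 to 82.5. What remained was assigned to the predicted transcript XM_047443316.1, at 86.9 to 93.3% against 5.21 to 26.5%, and NM_022132.5, at 50.9 to 68.9% elsewhere, was at 0 to 11.2%. These shares are estimates from overlapping transcripts, and the junctions behind them were not examined.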

How the data were processed

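RNA from 7 Ewing sarcoma and 6 osteosarcoma lines was sequenced as poly(A) RNA with the Illumina TruSeq Stranded mRNA kit, per the labels. Each library's deposited table lists 177816 RefSeq transcripts and was made with fastp 0.19.5 and kallisto 0.46.2 on hg38 (GRCh38.p14) per the submitters' processing notes; options were not stated there. Per the file headers the tables held estimated counts (expected counts, not whole), TPM (which the authors' program scales for length and depth), and other values, the effective lengths, used for an offset. Transcripts were matched by accession to RefSeq genes for 95.6% of transcripts; the 7856 unmatched held 1.07 to 1.60% of counts and were left out. Counts and TPM were summed by gene and counts rounded.

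The 3 libraries of a line were summed. Genes passing filterByExpr were scaled by TMM and tested with edgeR 4.0.16 (robust quasi-likelihood, Benjamini-Hochberg FDR under 0.05) under R 4.3.3; DESeq2 1.42.0 and limma 3.58.1 were alternatives, with other scaling, filters, replicates and lines left out. The test was checked on simulated data. Named genes were the 15 with the largest log2 fold change each way among genes highest (mean of 5 TPM or more in SKES1) or lowest (5 TPM or more over the others), then members of 27 lists that were highest or lowest, and 7 genes of the study; genes without settled symbols, small RNAs and sex-marker genes were counted, not named, and a few genes the rule named are not reported here. The rule and the lists were chosen with earlier results of these data known. Further names in the text are said to be chosen after their values were seen, or illustrate a list. P-values measure the spread between these lines, or between libraries. Promoters were matched by gene for 18026 of 25606 genes. Tables and figures used Python 3.11.15, numpy 2.4.6, pandas 2.3.3 and matplotlib 3.10.9.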

Additional observations from a re-analysis of the deposited data

Results flagged for a closer look

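Of 88 named genes 87 varied among the 6 other Ewing lines and were tested, and in 11 of them 1 of the 6 other Ewing lines lay far from the rest, by Dixon's ratio of the gap to the nearest line over the whole range of log2(TPM + 1), with a 95% critical value of 0.625 for 6 lines. Chance flags about 1 in 20 groups. ERG was at 34.8 TPM in EW3 and 0.0176 in the next line (ratio 0.995), and FLI1 at 2.08 TPM in EW3 and 31.9 in the next (0.879). AURKB was at 62.2 TPM in EW3 and 133 in the next (0.713). CDKN1A was at 1.74 TPM in RDES and 6.44 in the next (0.629), so the distance of SKES1 from the group is smallest to RDES. CKS2 was at 318 TPM in EW3 and 438 in the next (0.664). The other 6 were under 1 TPM in all of the 6 lines: HAND1 was at 0.984 TPM in RDES and 0.0939 in the next (0.869), MAGEA6 at 0.806 in TC71 and 0.0303 (0.950), CSAG3 at 0.370 in MHHES1 and 0.125 (0.626), CDKN2B at 0.165 in TC71 and 0.0595 (0.648), and MAGEA2B at 0.148 in A673 and 0.0474 (0.664). COL14A1 was at 0.0256 TPM in EW24 and at practically 0 in the next (ratio 1).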

How the results depend on the processing

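The count of 0 genes called higher and 0 lower was also found with RLE scaling, without the count filter, with the effective-length offset, and with any replicate of every line, any SKES1 replicate or any other line left out. Other fits made calls: DESeq2 on line sums 59 higher and 210 lower, limma voom with a random line 152 and 24, 13 lines with osteosarcoma as its own group 5 and 1, and 21 libraries with line means 5789 and 4739. With the replicate block the last gave 5808 and 4714; same-numbered SKES1 and other libraries had correlated deviations of -0.138 to 0.072, none over 0.1, and 6 of 18 correlated best with their own number, so the numbers do not pair libraries. Leaving out TC71 raised the 615 genes lowest to 1246, since TC71 was itself often the lowest; over all lines and SKES1 replicates left out, genes lowest ranged from 678 to 1246 and genes highest from 1178 to 1425. TMM-scaled CPM gave 982 highest and 778 lowest, and a mean of at least 1 TPM over the 7 lines 817 and 550. A gap of 20 points gave the same 3 transcripts. Of 88 named genes 86 kept the sign of their log2 fold change in the 20 settings. KCNN1, at -0.08, was 0.074 and 0.075 on 21 libraries without and with the replicate block, 0.066 with the random line, 0.0099 without replicate 3 of every line, 0.028 without A673 and 0.083 without MHHES1; its other values with a line or replicate left out went down to -0.28, without TC71. FLI1, at -0.16, was 0.30, 0.31 and 0.32 in the first 3 of those. Genes near 0 TPM have fitted fold changes that depend on the prior count.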
